A study of Homo sapiens with 10 samples.

Results

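Iron storage and transport were followed through 10 genes: FTH1, FTL, NCOA4, TFRC, SLC40A1, CP, LCN2, HMOX1, ACO1 and IREB2. The genes were chosen by name, with earlier results of these data known. Every annotated transcript carrying such a name was taken, which gave 28 of 99493 transcripts and 10 of 57110 gene identifiers. The transcripts had been measured by nanopore long-read RNA sequencing in 7 human ovarian cancer cell lines, in a series made to benchmark transcript quantification. COV362, COV504, OVKATE, OVMANA, OVTOKO and SK-OV-3 had 1 library each from the PromethION instrument. IGROV-1 had 2 PromethION libraries and 2 libraries from the smaller MinION. All lines were unmodified as far as the labels say, and no treatment is named. The labels do not say whether the IGROV-1 replicates were separate cultures, so p-values below measure only the spread between these libraries. The other lines have no replicate of their own.

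Cells store iron inside a hollow protein shell, ferritin, built from heavy chains (FTH1), which oxidise ferrous iron, and light chains (FTL), which help to lay down the mineral core. Iron bound to transferrin enters through the transferrin receptor (TFRC) and leaves through ferroportin (SLC40A1), and NCOA4 carries ferritin to the lysosome when stored iron is needed. In the cytosol, iron regulatory proteins encoded by ACO1 and IREB2 sense the supply and bind a short RNA hairpin, the iron-responsive element. Binding at the 5′ end of a message blocks its translation, and binding at the 3′ end of the TFRC message protects it from decay, so a message level does not give the protein level of the ferritins.

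The iron-responsive elements of the members are shown because they tie the storage, import and export genes to the same regulator. Each was found in the transcript sequence of GENCODE 29 (GRCh38) as a C, 5 bases of stem, the loop CAGTGN and 5 further bases that pair with the first 5, with G to T pairs allowed. Only the transcript strand was searched, since the element acts as RNA. An element that departs from this pattern would be missed, so the list may not be complete. The sequences run 5′ to 3′ on the transcript strand with 5 flanking bases on each side, and capitals mark the bulged C and the 6-base loop. All lie in exons.
FTH1, 5′ UTR, chr11:61967575-61967601, minus strand: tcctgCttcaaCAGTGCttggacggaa
FTL, 5′ UTR, chr19:48965336-48965362, plus strand: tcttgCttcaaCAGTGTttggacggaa
SLC40A1, 5′ UTR, chr2:189580662-189580688, minus strand: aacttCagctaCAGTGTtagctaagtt
TFRC, 3′ UTR, chr3:196050980-196051006, minus strand: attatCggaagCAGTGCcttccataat
TFRC, 3′ UTR, chr3:196050576-196050602, minus strand: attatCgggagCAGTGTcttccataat
TFRC, 3′ UTR, chr3:196050511-196050537, minus strand: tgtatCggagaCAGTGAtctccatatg
TFRC, 3′ UTR, chr3:196050464-196050490, minus strand: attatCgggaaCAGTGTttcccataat

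The motif was rare. It occurred in 0.0957% of 82552 annotated 5′ UTRs and in 0.361% of 75435 3′ UTRs. Among 5′ UTRs within 20% of the length of those of FTH1, FTL and SLC40A1 the shares were 0.0962%, 0.0982% and 0.121%. Among 5414 3′ UTRs close in length to that of TFRC, 1.02% held a match, and the 3 transcripts with 4 matches were all TFRC. These letters were not found in the transcripts of CP, NCOA4, HMOX1, LCN2, ACO1 or IREB2. Nearly all FTH1 counts, 99.88% to 100% per library, came from transcripts that carry the element, and all FTL, TFRC and SLC40A1 counts did.

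Levels are given in CPM, a gene's estimated count scaled by the library total. Library totals ran from 1729782 to 3666224 counts, and a count of 0 allows up to 3 counts, or 1.18 to 1.73 CPM in a library of the 6 other lines and 0.64 CPM over the IGROV-1 PromethION pair. Intervals are 95% and cover counting error only. PAX8, a Müllerian lineage factor, was found in every library at 84.1 to 340 CPM, and SOX17 at 10.4 to 146 CPM. Other Müllerian and ovarian carcinoma markers were not found throughout. WT1 had 76.2 CPM in OVKATE, 0.39 CPM in COV362 and 0 elsewhere. MUC16 was at 0 in OVTOKO and SK-OV-3 and at most 0.86 CPM in IGROV-1. MSLN was at 0 in OVTOKO and at most 0.27 CPM in IGROV-1, and reached 310 CPM in OVKATE. The 5 epithelial markers summed to 404 to 1270 CPM in IGROV-1 and 460 to 8791 CPM in the other lines. Within that list IGROV-1 had KRT18 at 263 and 1041 CPM in PromethION replicates 1 and 2 and at 244 and 1080 CPM in MinION replicates 1 and 2. In the IGROV-1 libraries KRT19 was at 140 to 177 CPM and KRT8 at 5.15 to 11.4 CPM, while EPCAM reached at most 1.54 CPM and CDH1 was at 0. CDH1 was also low in COV362, OVTOKO and SK-OV-3, with 1.57, 2.31 and 5.06 CPM. The leukocyte gene PTPRC reached at most 0.44 CPM, CD14 at most 4.004 CPM, and CD3E was at 0 in every library, while CD68 is joined with neighbouring genes in the annotation and could not be read alone. The liver genes ALB, TF and HAMP were at 0 in every library. So were the red cell genes HBB, ALAS2 and SLC4A1, and HBA1 and HBA2 reached 1.33 and 2.53 CPM at most. Among the fibroblast genes COL1A2 reached 429 CPM in COV362 and COL1A1 219 CPM in SK-OV-3. PDGFRB and DCN reached at most 0.86 and 0.58 CPM. Of the endothelial genes CDH5 reached 24.9 CPM in COV504, PECAM1 10.6 CPM in SK-OV-3 and VWF at most 0.55 CPM. Mitochondrial ribosomal RNA took 9.13% and 10.9% of the counts in the IGROV-1 PromethION libraries, 1.01% and 1.15% in the MinION libraries and 1.58% to 3.31% in the other lines. The part of that difference in the results below was not tested.

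The ferritin heavy chain had the highest level per transcript length (CPM per kb of the main transcript) of the 10 genes in every library. FTH1 (ENSG00000167996, chr11:61959718-61967660, minus strand) stood at 7147 CPM in OVMANA, 3352 in OVKATE, 14757 in OVTOKO, 12568 in SK-OV-3, 8165 in COV362 and 22239 in COV504. The IGROV-1 libraries had 3949 and 3923 CPM on the PromethION and 5036 and 5423 CPM on the MinION. COV504 was highest and OVKATE lowest, a 6.63-fold span, and OVKATE alone lay below every IGROV-1 library. Ordered by level, all 6 pairs of neighbouring lines had intervals that did not overlap and differed by more than the largest fold between IGROV-1 replicates, 1.08. Against the IGROV-1 PromethION pair, tested with edgeR's quasi-likelihood method and adjusted over all genes by Benjamini-Hochberg, FTH1 was higher in 5 of 6 lines. The log2 change was 2.42 (SE 0.15, adjusted p = 1.1e-05, edgeR) in COV504, 1.98 in OVTOKO, 1.45 in SK-OV-3, 1.10 in COV362 and 0.92 in OVMANA (edgeR adjusted p = 0.0022 at most in these 5 lines). It fell by 0.53 on the log2 scale in OVKATE (SE 0.16, adjusted p = 0.024, edgeR). That fall was the least secure, with adjusted p of 0.20 and 0.21 without IGROV-1 PromethION replicate 1 or 2 and 0.0501 without MinION replicate 1, and of 0.061 with a filter of 10 CPM and 0.099 with DESeq2.

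The light chain followed another order. FTL (ENSG00000087086, chr19:48965301-48966878, plus strand) stood at 4105 CPM in OVMANA, 1733 in OVKATE, 5349 in OVTOKO, 3962 in SK-OV-3, 1289 in COV362 and 801 in COV504. IGROV-1 had 2229 and 2374 CPM on the PromethION and 2345 and 2809.8 CPM on the MinION. COV504, the line with the most FTH1, had the least FTL, and COV362 and OVKATE also lay below all 4 IGROV-1 libraries. Only OVMANA and SK-OV-3, neighbours in the order, did not differ beyond their spread. FTL rose in OVTOKO, OVMANA and SK-OV-3, by 1.29, 0.90 and 0.55 on the log2 scale (edgeR adjusted p = 0.00049, 0.0029 and 0.022). It fell by 1.60 in COV504, fell by 0.79 in COV362 and fell by 0.71 in OVKATE (edgeR adjusted p = 0.0002, 0.006 and 0.008). The rise in SK-OV-3 did not pass without IGROV-1 PromethION replicate 1 (adjusted p = 0.18), PromethION replicate 2 (0.10) or MinION replicate 1 (0.051), and the fall in OVKATE did not pass without PromethION replicate 2 (0.062).

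The ratio of heavy to light chain counts therefore spread widely. It was 1.74 in OVMANA, 1.93 in OVKATE, 2.76 in OVTOKO, 3.17 in SK-OV-3, 6.33 in COV362 and 27.8 in COV504 (95% interval 26.5 to 29.1). IGROV-1 gave 1.71 ± 0.08 (SD, n = 2) on the PromethION and 2.04 ± 0.15 (SD, n = 2) on the MinION. COV504 and COV362 stood above every other library, and OVMANA and OVKATE lay within the range of the 4 IGROV-1 libraries. Divided by the lengths of the main transcripts, 1229 and 878 nt, the ratio ran from 1.18 in an IGROV-1 PromethION library to 19.8 in COV504, so heavy chain messages exceeded light chain messages per length in all 10 libraries. The scatter of the ferritin chains places COV504 and COV362 away from the other lines.

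**Figure D1:**
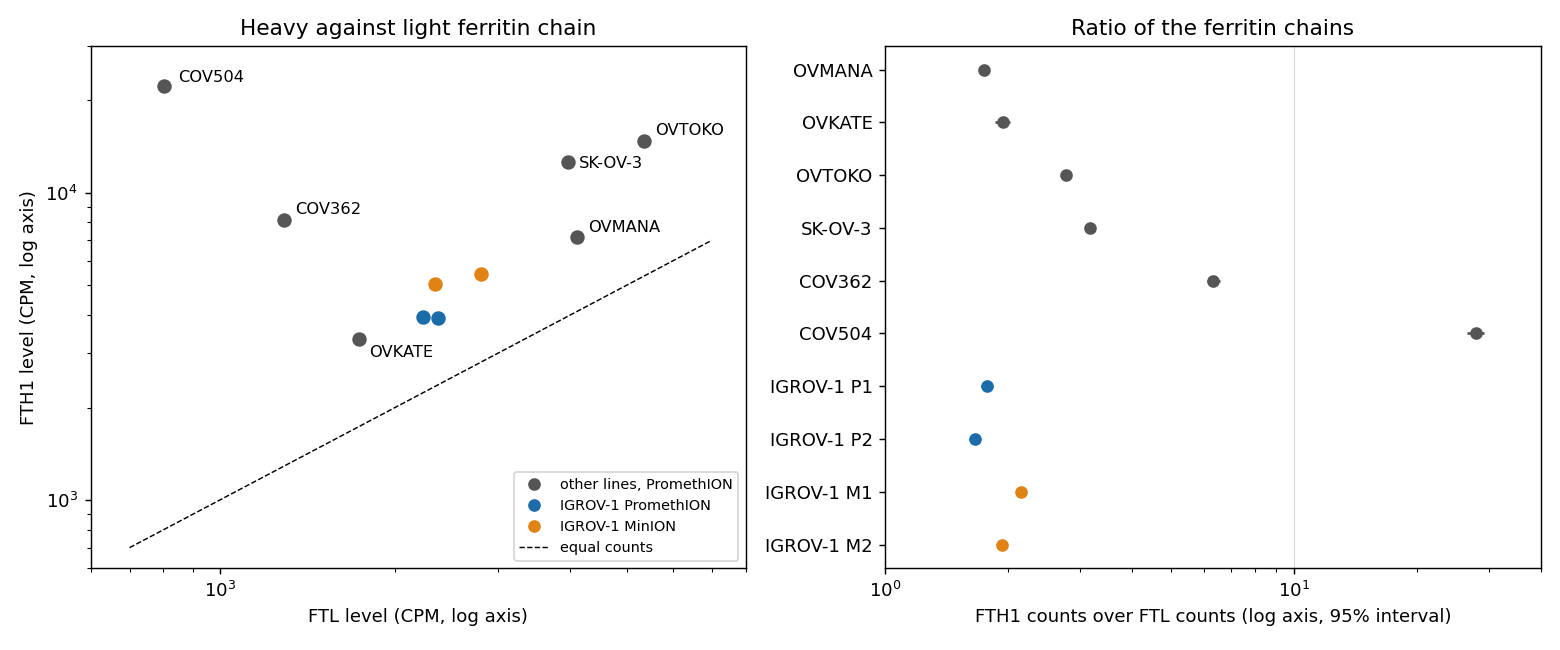
Left, FTH1 level against FTL level in CPM on log axes, a point per library, with the dashed line at equal counts; right, the ratio of FTH1 to FTL counts per library on a log axis with 95% intervals. COV504 has the highest FTH1 (22239 CPM) and the lowest FTL (801 CPM), and its ratio of 27.8 stands apart from the range of 1.65 to 6.33 in the other 9 libraries.

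Ferritin has many pseudogenes, most of them processed, whose reads can be confused with those of the parent genes. Of 39 such pseudogenes in the annotation 6 had at least 1 count in a library, and only FTH1P10 (ENSG00000223361, chr5:17353695-17354624) exceeded 0.51 CPM. FTH1P10 stood at 330 CPM in OVMANA, 131 in OVKATE, 499 in OVTOKO, 588 in SK-OV-3, 556 in COV362 and 959 in COV504. IGROV-1 had 207 and 236 CPM on the PromethION and 60.0 and 93.0 CPM on the MinION, so the MinION pair was lower than all 8 PromethION libraries. FTH1 pseudogenes took 3.27% to 6.37% of the summed FTH1 and pseudogene counts on the PromethION and 1.18% and 1.70% on the MinION, and FTH1 levels are uncertain by about that share. Within IGROV-1, a pseudogene comparison made after its values were seen, FTH1P10 fell by 1.59 on the log2 scale on the MinION (SE 0.18, edgeR adjusted p = 0.0069). The adjusted p was 0.50 without MinION replicate 1, 0.28 without MinION replicate 2 and 0.16 without the expression filter. Whether reads were assigned to the right copy was not tested.

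**Figure D2:**
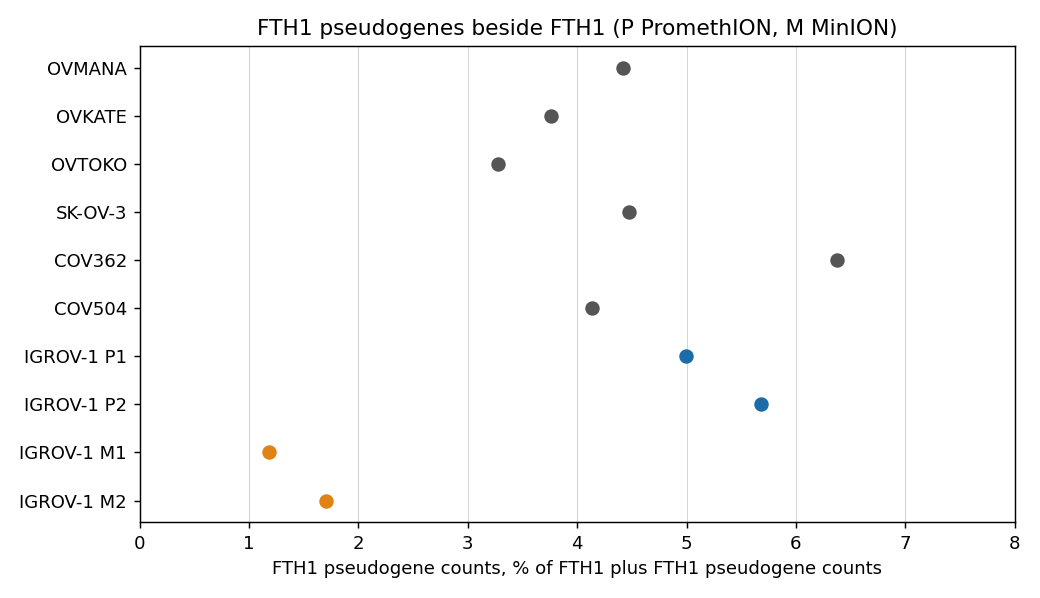
Counts of FTH1 pseudogenes as a percentage of FTH1 plus FTH1 pseudogene counts, a point per library (gray other lines, blue IGROV-1 on the PromethION, orange IGROV-1 on the MinION). The MinION libraries sit at 1.18% and 1.70%, below the 3.27% to 6.37% of the 8 PromethION libraries.

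NCOA4, the receptor that takes ferritin to the lysosome, varied least of the 10 genes. NCOA4 (ENSG00000266412, chr10:46005088-46030714, minus strand) stood at 116 CPM in OVMANA, 118 in OVKATE, 108 in OVTOKO, 157 in SK-OV-3, 158 in COV362 and 115 in COV504, against 170 and 127 CPM in the IGROV-1 PromethION libraries and 146 and 152 CPM on the MinION. The whole span of lines was 1.47-fold, the IGROV-1 PromethION replicates differed 1.34-fold, and no neighbours in the order differed by more than the replicates. NCOA4 fell in OVKATE, by 0.63 on the log2 scale (SE 0.20, edgeR adjusted p = 0.031), and passed in 5 of 11 alternative fits there. Leaving out a single IGROV-1 library gave adjusted p of 0.17 (PromethION replicate 1), 0.11 (MinION replicate 1) and 0.096 (MinION replicate 2). In COV504 the log2 change of -0.45 did not pass (edgeR adjusted p = 0.11), but without PromethION replicate 2 it was -0.64 with adjusted p = 0.029.

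The transferrin receptor, the main port of entry for iron, was highest in a pair of lines. TFRC (ENSG00000072274, chr3:196027183-196082189, minus strand) stood at 410 CPM in both OVMANA and COV504, 231 in OVKATE, 247 in OVTOKO, 253 in COV362 and 110 in SK-OV-3. IGROV-1 had 182 and 219 CPM on the PromethION and 143 and 225 CPM on the MinION, so OVMANA and COV504 lay above and SK-OV-3 below all IGROV-1 libraries. TFRC rose in OVMANA, by 1.10 on the log2 scale (SE 0.23, edgeR adjusted p = 0.0067), and in COV504, by 0.96 (SE 0.23, edgeR adjusted p = 0.01). It fell by 1.09 in SK-OV-3 (SE 0.26, edgeR adjusted p = 0.0099). COV362, OVTOKO, OVKATE and IGROV-1 formed a middle group in which neighbours had overlapping intervals and folds within the largest between IGROV-1 replicates, 1.58. OVMANA and COV504 thus had more TFRC and more FTH1 than IGROV-1, while SK-OV-3 had less TFRC and more FTH1. Log2 changes include edgeR's TMM scaling between libraries and can differ from ratios of CPM, as for TFRC in OVKATE, with 231 against a mean of 200.1 CPM and a log2 change of -0.095.

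Ferroportin, the exporter, was scarce. SLC40A1 (ENSG00000138449, chr2:189560579-189583758, minus strand) had 43 counts in OVKATE (21.3 CPM, 95% interval 15.4 to 28.7), 15 in COV362, 6 in COV504, 5 in OVTOKO, 1 in SK-OV-3 and 0 in OVMANA. The IGROV-1 libraries had 7 and 2 counts on the PromethION and 5 and 6 on the MinION. OVKATE alone stood clear of its neighbour in the order, COV362 with 5.88 CPM, and the remaining neighbours could not be told apart at this depth. In OVKATE the log2 change was 3.13 (SE 0.54, edgeR adjusted p = 0.0018), and with DESeq2 the adjusted p was 0.28. SLC40A1 passed the expression filter through lines where it is high. In COV362 (log2 change 1.63, edgeR adjusted p = 0.082) it passed only without PromethION replicate 1 (0.014), and in OVMANA, with no count, only without PromethION replicate 2 (adjusted p = 0.11 with that library and 0.028 without it).

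Ceruloplasmin, a copper ferroxidase that oxidises iron leaving the cell and is best known from liver, spanned the widest range of the members found in every line. CP (ENSG00000047457, chr3:149162410-149222055, minus strand) stood at 263 CPM in OVMANA, 43.0 in OVKATE, 449 in OVTOKO, 19.2 in SK-OV-3, 11.4 in COV362 and 62.3 in COV504. IGROV-1 had 7.69 and 6.44 CPM on the PromethION and 5.46 and 5.87 CPM on the MinION. OVTOKO exceeded IGROV-1 63.5-fold in CPM, and all 6 lines lay above all 4 IGROV-1 libraries. CP rose in OVTOKO, OVMANA, COV504, OVKATE and SK-OV-3, by 6.06, 5.27, 3.05, 2.30 and 1.21 on the log2 scale (edgeR adjusted p = 1.7e-06, 1.3e-06, 2.5e-05, 0.00013 and 0.0092). In COV362 the log2 change was 0.72 (edgeR adjusted p = 0.098). With DESeq2 the adjusted p in SK-OV-3 was 0.12.

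Lipocalin 2, a secreted protein that binds iron-carrying siderophores, was present or absent by line. LCN2 (ENSG00000148346, chr9:128149071-128153455, plus strand) stood at 1848 CPM in OVKATE, 144 in COV504, 87.9 in OVTOKO, 54.8 in COV362 and 33.4 in SK-OV-3. It had no count in OVMANA or in any of the 4 IGROV-1 libraries, which allows up to 1.60 CPM in OVMANA. Per transcript length, LCN2 in OVKATE reached 2248 CPM per kb, between FTH1 (2728) and FTL (1973) of that line. OVKATE exceeded COV504, the next line, 12.8-fold. The counting intervals of the 5 lines with LCN2 did not overlap, but with no LCN2 count in IGROV-1 there is no replicate spread to set beside these differences. Against the floor of the IGROV-1 PromethION pair, 3 counts over the pair, the level in CPM was at least 224-fold higher in COV504, 137-fold in OVTOKO, 85.4-fold in COV362 and 52.0-fold in SK-OV-3 (edgeR adjusted p = 1.1e-05, 2.7e-05, 4.5e-05 and 0.00012). LCN2 passed the expression filter only through lines where it is high, so its calls are a description of presence and absence.

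Heme oxygenase 1, which releases iron from heme and is induced by heme and oxidative stress, was high in OVTOKO and low in OVKATE, COV504 and COV362. HMOX1 (ENSG00000100292, chr22:35380361-35394214, plus strand) stood at 103 CPM in OVTOKO, 35.5 in SK-OV-3, 23.5 in OVMANA, 8.41 in OVKATE, 4.45 in COV504 and 1.96 in COV362. IGROV-1 had 33.3 and 33.9 CPM on the PromethION and 41.2 and 39.9 CPM on the MinION. OVTOKO lay above and OVMANA, OVKATE, COV504 and COV362 below all IGROV-1 libraries, and COV362 rested on 5 counts and COV504 on 10. HMOX1 rose in OVTOKO, by 1.70 on the log2 scale (SE 0.19, edgeR adjusted p = 0.00031, and 0.065 with DESeq2). It fell by 4.03 in COV362, fell by 2.98 in COV504 and fell by 2.29 in OVKATE (edgeR adjusted p = 9.4e-05, 0.00018 and 0.00032). SK-OV-3 and OVMANA did not pass, with log2 changes of -0.15 and -0.45 (edgeR adjusted p = 0.61 and 0.17).

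The 2 iron regulatory proteins differed in how far they varied. ACO1 (ENSG00000122729, chr9:32384603-32454769, plus strand), which is a cytosolic aconitase when it holds an iron-sulfur cluster and an RNA-binding protein when it does not, stood at 188 CPM in OVTOKO, 47.2 in COV504, 42.5 in SK-OV-3, 28.9 in OVMANA, 16.5 in COV362 and 15.8 in OVKATE. IGROV-1 had 38.0 and 43.0 CPM on the PromethION and 41.2 and 40.2 CPM on the MinION. OVTOKO stood clear of all other lines, and COV362, OVKATE and OVMANA lay below all IGROV-1 libraries. ACO1 rose in OVTOKO by 2.30 on the log2 scale (SE 0.18, edgeR adjusted p = 4.3e-05). It fell by 1.65 in OVKATE and fell by 1.25 in COV362 (edgeR adjusted p = 0.00087 and 0.0035), and with DESeq2 the adjusted p in COV362 was 0.19.

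IREB2 (ENSG00000136381, chr15:78437431-78501456, plus strand), whose protein is degraded when iron is plentiful, stood at 20.8 CPM in OVMANA, 63.8 in OVKATE, 68.2 in OVTOKO, 41.5 in SK-OV-3, 35.3 in COV362 and 56.9 in COV504. IGROV-1 had 51.3 and 55.0 CPM on the PromethION and 42.3 and 47.6 CPM on the MinION. OVMANA was lowest, and the counting intervals of all neighbours in the order overlapped. IREB2 fell in OVMANA by 1.29 on the log2 scale (SE 0.23, edgeR adjusted p = 0.003, and 0.21 with DESeq2). It fell in SK-OV-3 by 0.58 (SE 0.20, edgeR adjusted p = 0.044), a call that held in 2 of 11 alternative fits. Leaving out any of the 4 IGROV-1 libraries ended the call in SK-OV-3, with adjusted p of 0.072 and 0.15 without PromethION replicate 1 or 2 and 0.076 and 0.097 without MinION replicate 1 or 2.

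**Figure D3:**
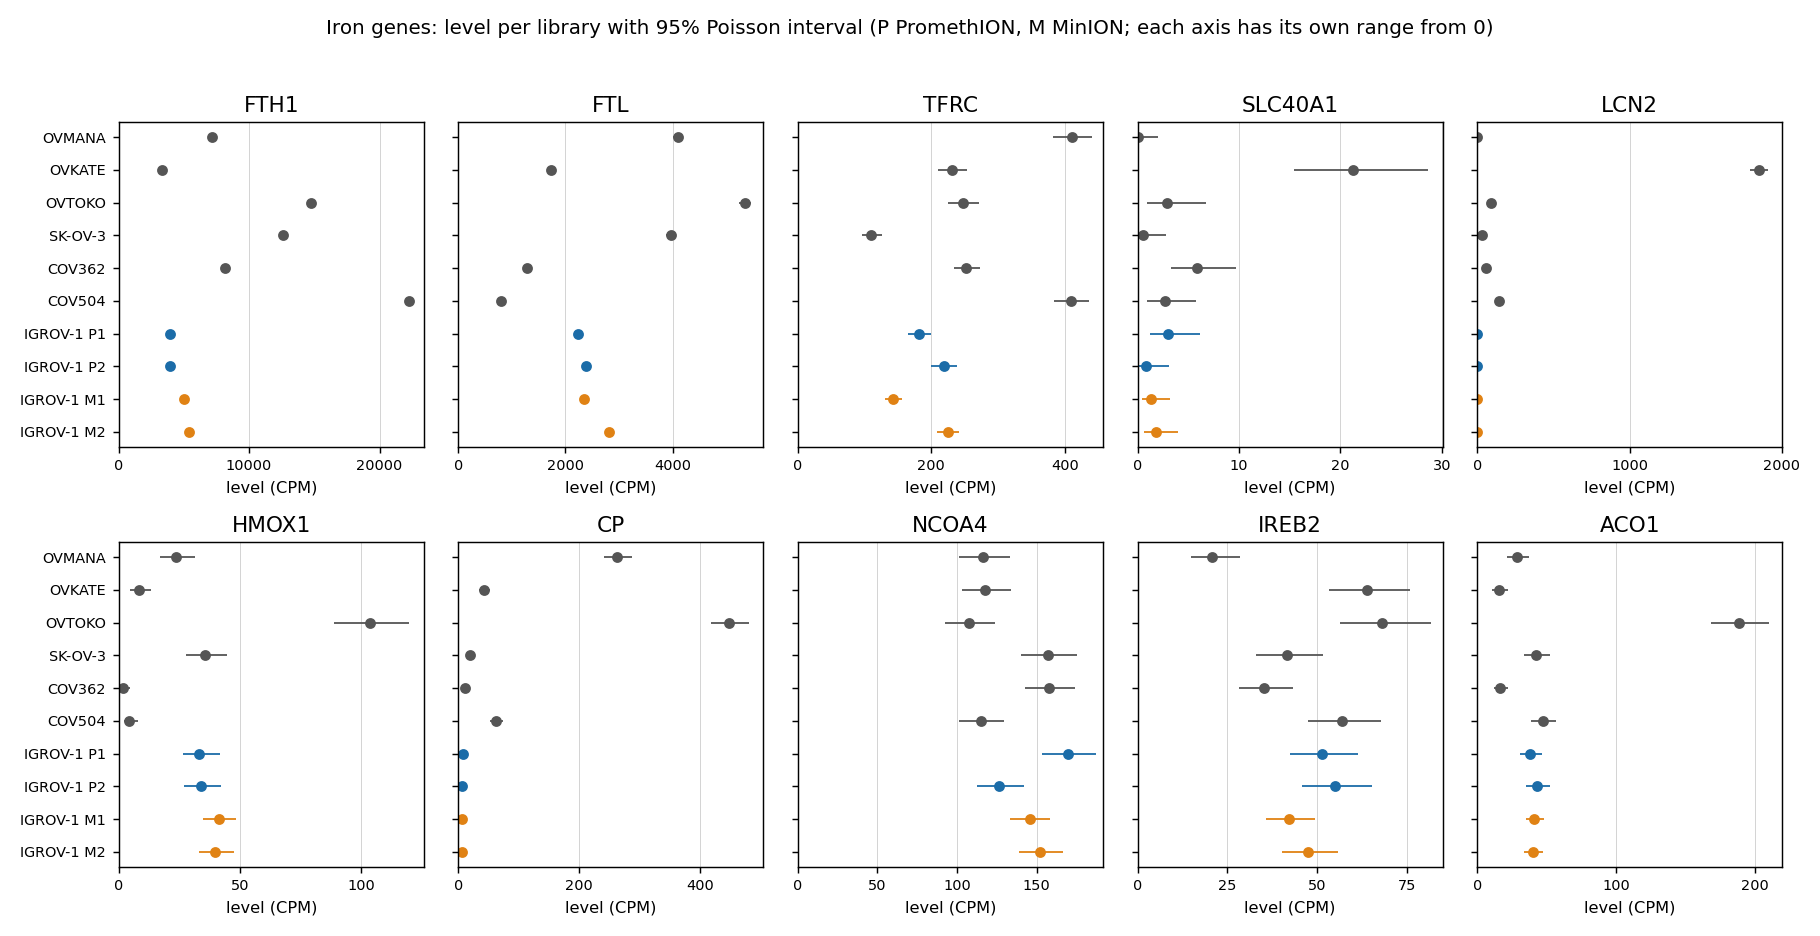
Level of each of the 10 genes in CPM (x axes, linear from 0, each with its own range) in each library (rows), with 95% Poisson intervals; gray points are the other lines, blue IGROV-1 on the PromethION and orange IGROV-1 on the MinION. NCOA4 stays between 108 and 170 CPM, while LCN2 runs from 0 to 1848 CPM in OVKATE and ACO1 and HMOX1 are highest in OVTOKO.

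Counted by line, 5 to 8 of the 10 members passed the edgeR test against the IGROV-1 PromethION pair, in a fit where many genes of every kind passed. All 6 comparisons share the same IGROV-1 libraries. In OVMANA 4 members were higher (CP, TFRC, FTH1, FTL) and 1 lower (IREB2), beside 18.9% and 16.5% of the 13030 genes tested. In OVKATE 3 were higher (LCN2, SLC40A1, CP) and 5 lower (HMOX1, ACO1, FTL, NCOA4, FTH1), beside 26.8% and 22.4% of all genes. With DESeq2 in place of edgeR the OVKATE count was 5 of 10, beside 17.1% of 12346 genes called by DESeq2 in either direction.

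In OVTOKO 6 members were higher (LCN2, CP, ACO1, FTH1, HMOX1, FTL) and none lower, beside 18.2% and 15.9% of all genes. This was the only line with no fall among the members that passed. In SK-OV-3 4 were higher (LCN2, FTH1, CP, FTL) and 2 lower (TFRC, IREB2), beside 22.0% and 19.8%. In COV362 2 were higher (LCN2, FTH1) and 3 lower (HMOX1, ACO1, FTL), beside 23.7% and 18.8%. In COV504 4 were higher (LCN2, CP, FTH1, TFRC) and 2 lower (HMOX1, FTL), beside 24.0% and 19.6%.

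The median log2 change of the members was 1.496 in OVTOKO, 0.26 in both COV504 and COV362, -0.15 in SK-OV-3, -0.14 in OVMANA and -0.31 in OVKATE. The median of all genes lay between -0.01 and 0.04 in these comparisons. With genes at 0 set to their bound, the OVMANA median was -0.26 over 9 members and the other medians kept their values. These counts and medians include members that passed the filter through the line where they are high, and are not read as more than a description.

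**Figure D4:**
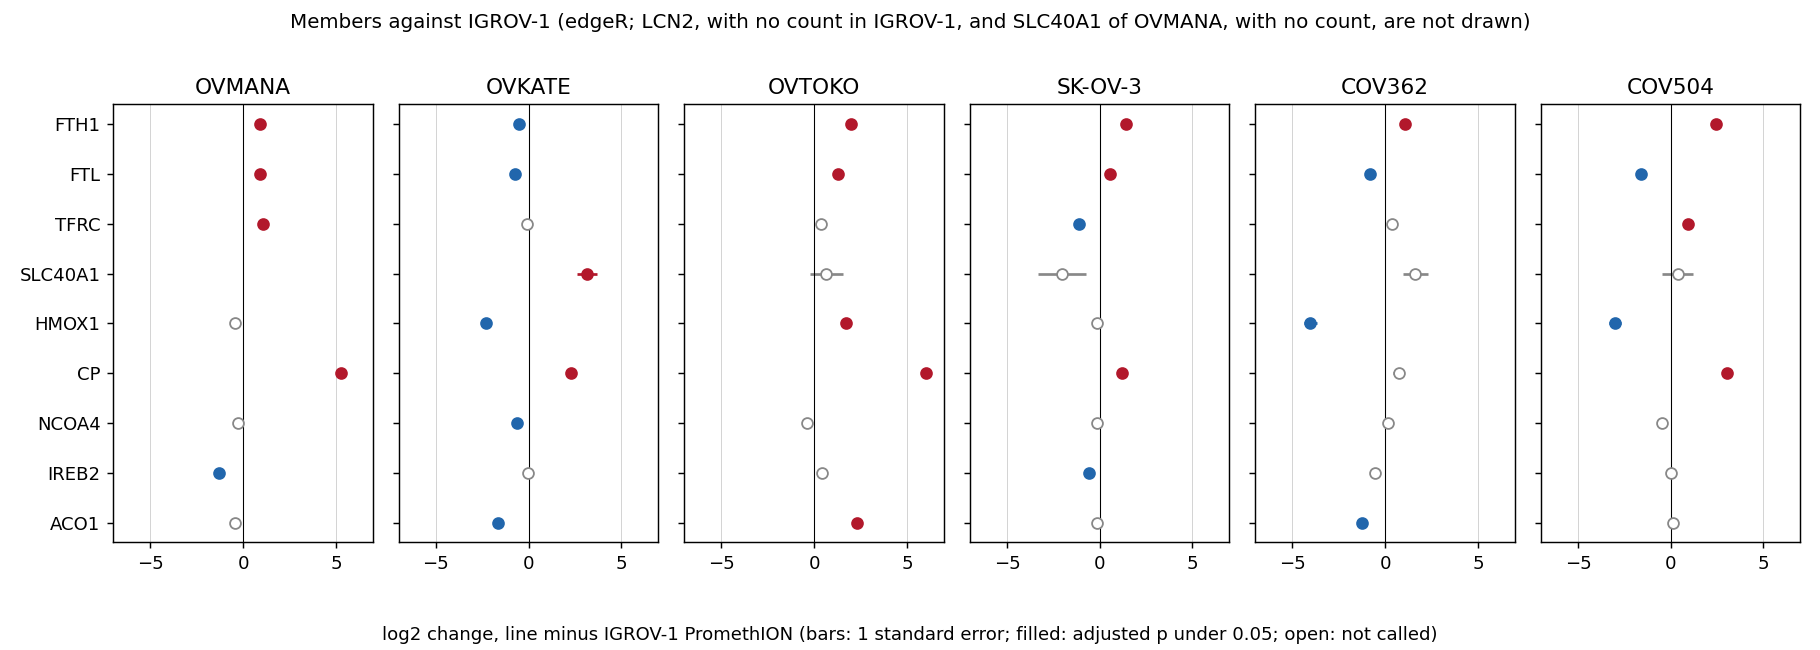
Log2 change of each member in each line minus the IGROV-1 PromethION pair (x axis), with bars of 1 standard error; filled red points were higher and filled blue points lower at an edgeR adjusted p under 0.05, and open points did not pass. FTH1 is higher in 5 lines, CP in 5, and in COV504 FTH1 (2.42) and FTL (-1.60) lie on opposite sides of 0.

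Most members used a single transcript, and 21 of the 28 annotated transcripts had at least 1 count in a library. FTL, CP, HMOX1 and SLC40A1 have 1 transcript each in the annotation deposited with the data. Their share was thus fixed at 100%, and any other form of these genes could not be seen. The main FTH1 transcript ENST00000273550 took 99.7% to 99.9% of FTH1 counts in the other lines, and the main IREB2 transcript ENST00000258886 took 97.3% to 100%. For LCN2, ENST00000277480 took at least 99.98% in the 5 lines with the gene. ACO1, NCOA4 and TFRC were the members with a second transcript of at least 10% somewhere.

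The ACO1 transcripts differ mainly in the length of the 3′ UTR. ENST00000309951 carries a 3′ UTR of 4658 nt and ENST00000379923 of 725 nt, with the same coding length of 2670 nt. The long form took 58.8% of ACO1 counts in OVMANA, 41.2% in OVKATE, 50.1% in OVTOKO, 41.5% in SK-OV-3, 22.4% in COV362 (Wilson interval 11.7% to 35.9%) and 42.9% in COV504. In IGROV-1 it took 62.3% and 47.7% on the PromethION and 39.4% and 32.5% on the MinION, so the long form was lower in both MinION libraries. COV362 was lowest and rests on 42 counts.

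NCOA4 was read mainly as ENST00000585132, which starts from another first exon than ENST00000581486 and has the same coding length of 1845 nt. The minor form ENST00000581486 took 33.0% of NCOA4 counts in OVKATE, 31.9% in COV504, 27.2% in OVTOKO, 23.6% in OVMANA, 18.0% in SK-OV-3 and 16.1% in COV362. In IGROV-1 it took 26.7 ± 0.05% (SD, n = 2) on the PromethION and 18.8 ± 1.6% (SD, n = 2) on the MinION. For TFRC the minor form ENST00000420415, with 18 exons and a coding length of 2040 nt against 19 exons and 2283 nt in ENST00000360110, took 6.54% to 13.7% in the other lines. Its share was 8.0 ± 1.3% (SD, n = 2) on the IGROV-1 PromethION and 15.2 ± 0.8% (SD, n = 2) on the MinION. Both MinION shares lay above both PromethION shares. The Wilson intervals of replicate 1 overlapped, with 6.58% to 12.03% on the PromethION and 11.92% to 17.98% on the MinION.

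**Figure D5:**
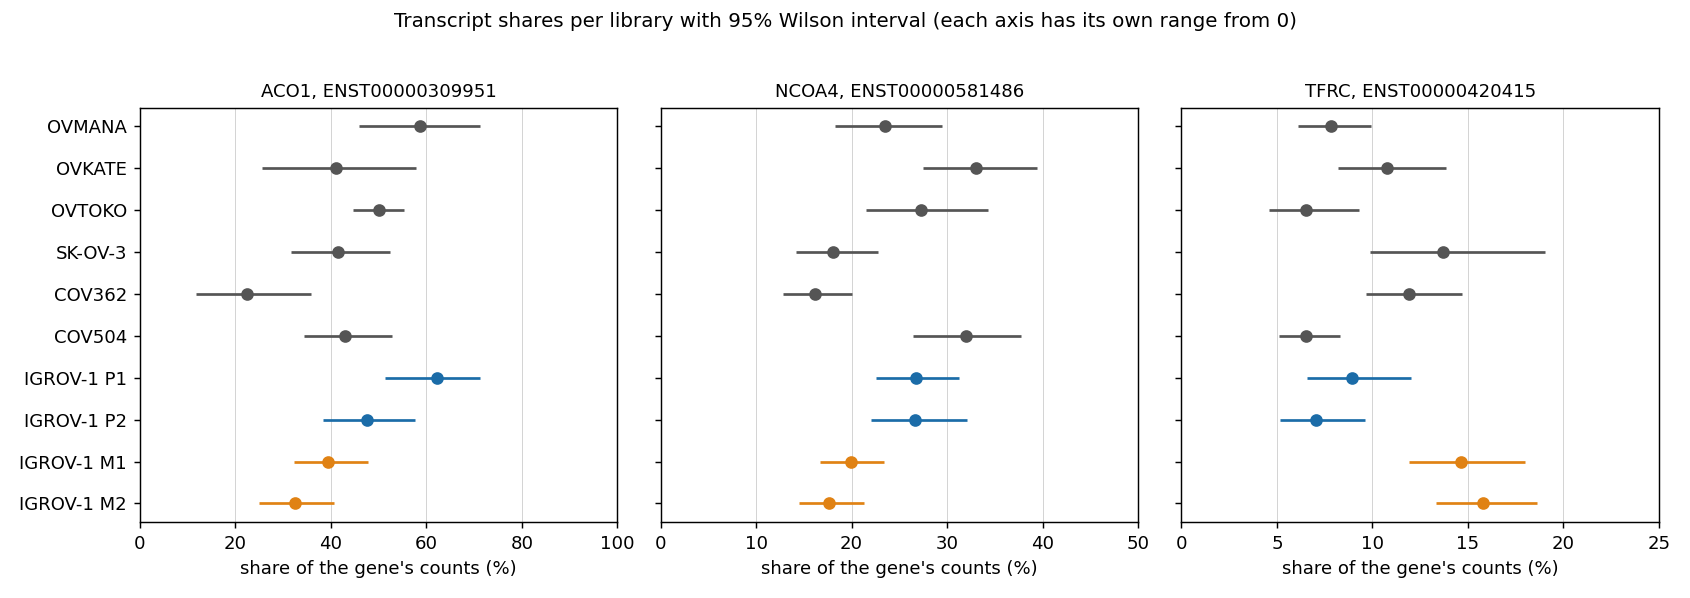
Share of a gene's counts in 1 transcript (x axes, percent, linear from 0, each with its own range) per library (rows), with 95% Wilson intervals: the long 3′ UTR form of ACO1, and the minor forms of NCOA4 and TFRC. The MinION libraries (orange) have lower shares of the ACO1 and NCOA4 forms and higher shares of the TFRC form (14.7% and 15.8%) than the IGROV-1 PromethION libraries (blue).

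None of these differences in transcript usage passed the test over all genes. ACO1, FTH1, NCOA4 and TFRC could be tested with edgeR's transcript usage test (Simes p per gene, Benjamini-Hochberg adjustment), and 0 of 4 were called in any comparison. The gene-level F test also called 0. The lowest adjusted p in a line comparison was 0.31, for ACO1 in COV362 and for FTH1 in SK-OV-3, and 1 member had an unadjusted p under 0.05 in each of COV362 and SK-OV-3 and 0 in the other 4 lines. Over all genes, usage was called for 4.97% in OVKATE, 2.98% in COV362, 2.75% in OVMANA, 2.56% in COV504, 2.07% in SK-OV-3 and 1.35% in OVTOKO. Between instruments 5.98% of genes were called, and among the members TFRC had the lowest adjusted p, 0.20, with 2 of 4 members at an unadjusted p under 0.05.

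Gene levels in IGROV-1 were also compared between the instruments. SLC40A1 and LCN2 were too low to be tested, and 0 of the 8 other members were called with edgeR or DESeq2, beside 0.817% of 10041 genes with edgeR and 0.559% of 10922 genes with DESeq2. At an unadjusted p under 0.05, edgeR gave 1, FTH1, with 3936 ± 18 CPM (SD, n = 2) on the PromethION and 5229 ± 274 CPM (SD, n = 2) on the MinION. Its log2 change was 0.37 (SE 0.13, edgeR adjusted p = 0.21). With the replicate number as a block the same change had an edgeR adjusted p of 1.1e-05. The block leaves fewer residual degrees of freedom than the 2 of the fit without it. With that, and with no share of all genes called with the block given here, this value is not read as support for a difference. The log2 changes of the other 7 lay between -0.36 (CP) and 0.23 (HMOX1).

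Beyond the members, 44 other genes of iron and heme handling were listed, also with earlier results of these data known. Of these 43 are in the annotation and 33 could be tested against IGROV-1. In OVTOKO 13 were higher and 3 lower (median log2 change 0.50), so edgeR called 48.5% of the list beside 34.1% of all genes. In SK-OV-3 8 were higher and 8 lower (median -0.11), 48.5% beside 41.8%. OVKATE had 9 higher and 8 lower (median -0.04), 51.5% beside 49.2%, and OVMANA 7 higher and 5 lower (median 0), 36.4% beside 35.4%, shares near those of all genes. COV362 with 5 higher and 6 lower (median 0.16) and COV504 with 3 higher and 8 lower (median -0.33) had 33.3% of the list called, below the 42.5% and 43.5% of all genes. DESeq2 called 5 of the 33 in OVTOKO and in OVKATE, 3 in OVMANA, COV362 and COV504 and 2 in SK-OV-3, beside 11.4% of all genes in OVTOKO, 17.1% in OVKATE, 11.7% in OVMANA, 12.8% in COV362, 14.4% in COV504 and 13.6% in SK-OV-3. Without MinION replicate 1 or 2 the calls numbered 8 and 10 in SK-OV-3 and 7 and 7 in COV504. Between instruments edgeR called 0 of 28, with 2 at an unadjusted p under 0.05, and 4 with the replicate block. The shares of all genes called in the fits without a MinION replicate and with the block are not given here. These counts therefore describe only how the calls move with the fit.

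CYBRD1, a ferric reductase of the plasma membrane, had the largest rise in 5 lines. It stood at 420 CPM in OVKATE, 167 in COV362, 165 in COV504, 126 in OVTOKO and 65.3 in SK-OV-3, with 0.53 CPM in OVMANA and no count in the 4 IGROV-1 libraries. Against the floor of the IGROV-1 PromethION pair these levels were at least 654-fold, 259-fold, 257-fold, 196-fold and 102-fold higher (edgeR adjusted p between 5e-06 and 4.7e-05). With no count in IGROV-1, CYBRD1 passed the expression filter only through the lines where it is high, so these calls too describe presence and absence. LCN2 was also found in these 5 lines and had no count in OVMANA or IGROV-1. STEAP4, another metalloreductase, had 64.3 CPM in OVKATE and no count elsewhere.

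Among the largest falls, SLC39A8, a zinc, manganese and iron importer, had no count in OVMANA and 1.16 CPM in OVTOKO, against 35.0 and 22.3 CPM in the IGROV-1 PromethION libraries. The OVMANA level was at least 17.9-fold lower (edgeR adjusted p = 0.0018). SLC39A8 did not pass in the other 4 lines. FECH, the enzyme that places iron into heme, was lower in 4 lines: it fell by 2.44 on the log2 scale in OVTOKO, fell by 2.15 in OVKATE, fell by 1.52 in OVMANA and fell by 1.17 in COV362 (edgeR adjusted p = 0.00081, 0.00043, 0.0035 and 0.006). ALAS1, the enzyme of the first step of heme synthesis, fell by 1.73 in OVKATE and fell by 0.87 in SK-OV-3 but rose by 0.79 in OVMANA (edgeR adjusted p = 0.0012, 0.022 and 0.0197). EPAS1 encodes a hypoxia-inducible factor and its message is known to carry an iron-responsive element, although the motif as searched above was not found in its transcript. It fell by 3.80 in COV362, fell by 2.32 in COV504, fell by 1.71 in OVKATE and fell by 1.69 in SK-OV-3 (edgeR adjusted p = 2.9e-05, 0.00012, 0.00032 and 0.00046). EPAS1 rose in the remaining lines, by 1.504 in OVMANA and 0.79 in OVTOKO (edgeR adjusted p = 0.00029 and 0.0098). BLVRA, which acts after heme oxygenase, fell by 0.81 in OVKATE and rose by 1.57 in OVMANA, 0.55 in SK-OV-3 and 1.40 in OVTOKO (edgeR adjusted p = 0.013, 0.00026, 0.04 and 0.00061).

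Genes of like pattern were sought for the 5 members with at least 10 CPM in some line and at least a 10-fold range, by Pearson correlation of log2(CPM + 1) over the 7 lines among 11210 genes. With 7 points and so many genes, high values arise readily, and they are given as a description. For ACO1 the most alike was SLC11A2 (r = 0.98), the iron transporter DMT1, with 45.7 CPM in OVTOKO and 16.8 to 26.7 CPM in the other lines. For LCN2 they were ACSS1, TAB3 and IL15 (r = 0.98, 0.98 and 0.97), and ACSS1 had 81.1 CPM in OVKATE and none in OVMANA or IGROV-1. The most alike of SLC40A1 was ARHGEF19 (r = 0.99), of HMOX1 METAP1 (r = 0.98) and of CP POLDIP2 (r = 0.97). The correlation compares shape and not range. METAP1 ran only from 53.7 to 75.7 CPM and POLDIP2 from 36.0 to 86.1 CPM, while HMOX1 spanned 52.8-fold and CP 63.5-fold. TAB3 ran from 4.27 to 13.8 CPM, beside 0 to 1848 CPM for LCN2.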

How the data were processed

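Per the labels' protocols, total RNA was column-purified and made into libraries with a ligation sequencing kit. Alignment with minimap2 2.24-r1122 to GRCh38 is named in the submitters' processing notes. Quantification settings and use of strand were not given in the sources used here, so overlapping genes and copies are uncertain. The authors deposited, per transcript, an estimated count and a TPM. That TPM equals the CPM, the count scaled by the library total, to within 5.6e-11 and is not divided by length. The deposited gene names were used as given. No member shares an identifier with another gene.

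Counts were summed per gene, rounded and tested with edgeR 4.0.16 (R 4.3.3): quasi-likelihood, TMM, default filter, two-sided, Benjamini-Hochberg over all genes, calls under 0.05. The 6 lines were fitted with all 10 libraries, and the instruments with the 4 IGROV-1 libraries. Each standard error (SE) of an edgeR log2 change was derived from the test. It is the absolute log2 change divided by the square root of the F statistic. Residual variation came from the IGROV-1 replicates alone (2 degrees of freedom). If IGROV-1 libraries of the same number share material, the pairs are not independent. The spread used for the line comparisons would then rest on less than those 2 degrees of freedom. The single libraries of the other lines are assumed to vary as those do. Replicates differed by more than counting noise (chi-square per degree of freedom 4.36 and 6.73). Usage was tested with diffSpliceDGE. Alternatives included DESeq2 1.42.0, its size factors, other filters, pseudogenes added and leaving out each IGROV-1 library. Scripts were tested on simulated data. Neighbouring lines were called apart when exact Poisson intervals did not overlap and the fold exceeded the largest between IGROV-1 replicates. LCN2, with no count in IGROV-1, could not be assessed. The members were all described, transcripts from 10% of a member's counts (20 counts or more), and of the other iron genes the 2 largest rises and falls called per comparison could be named, with their calls in the other lines. Members and lists were chosen with earlier results of these data known.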

Additional observations from a re-analysis of the deposited data

How the results depend on the processing

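Of 78 counts of members called under alternatives, 76 stayed within 1.5 times the reported count. The exceptions were OVKATE with DESeq2 (5) and the instrument comparison with the replicate block (1). The share of all genes called with the block is not given here. The labels do not say that IGROV-1 libraries of the same number share a culture, and the correlation of their deviations was 0.49 over 7894 genes in only 2 pairs. Among the markers KRT18, COL1A1 and CDH5 were higher in replicate 2 on both instruments, while PAX8 and KRT8 did not change the same way on both. The instrument test without the block leaves out any such pairing, and whether libraries of the same number share material was not tested. All 56 usage counts stayed at 0, the block included. Direction reversed 13 times, always for a log2 change that was not called under either setting. IREB2 in OVKATE went from -0.037 to 0.037 with DESeq2 size factors, 0.026 with a filter of 10 CPM and 0.038 with DESeq2. The other reversals came from leaving out 1 IGROV-1 library at a time, which gave these ranges. In OVKATE, IREB2 ran from -0.092 to 0.016 and TFRC from -0.23 to 0.047. NCOA4 ran from -0.34 to 0.076 in SK-OV-3 and from -0.060 to 0.35 in COV362. In COV504, SLC40A1 ran from -0.24 to 1.5 and IREB2 from -0.032 to 0.076. Between instruments, TFRC ran from -0.48 to 0.090, NCOA4 from -0.23 to 0.19 and ACO1 from -0.12 to 0.057. The cause was not tested. Adding pseudogenes gave ferritin ratios of 1.75 to 28.97. SLC40A1 rests on at most 43 counts a library, and HMOX1 in COV362 and COV504 on 5 and 10, which limits their precision.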
